A study of Mus musculus with 12 samples.

Results

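The hypothalamus of obese mice given only vehicle is described here, from the 4 DMSO arrays of a series of 12. The members are the arrays with DMSO in their title, and no treated array enters a mean or a rank given here. The mice were C57BL/6J males, 23 weeks old, which had eaten a diet with 45% fat for 20 weeks from the age of 3 weeks. They received DMSO, the solvent of the study's compounds, by intraperitoneal injection on 4 days and then daily for another 4 days. The other groups of the series, 4 arrays each, had the same diet and the same first 4 days of DMSO, followed by celastrol (100 µg/kg a day) or by withaferin A (2 mg/kg a day). All 3 groups were therefore obese and injected, and neither a lean nor an uninjected group is part of these samples. The labels call the 4 arrays biological replicates and do not say whether each RNA came from 1 mouse or from a pool.

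The hypothalamus joins the brain to the endocrine system and sets feeding, body temperature, water balance, sleep and reproduction. Its neurons are known for secreting many different peptides, which are cut from prohormones inside dense-core vesicles and act on G protein-coupled receptors. Neurons of the arcuate nucleus, next to the median eminence, sense leptin, insulin and ghrelin, and those of the lateral area make orexin and melanin-concentrating hormone. The sample is bulk tissue, so that for any gene fewer cells of a type and less RNA per cell cannot be told apart.

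Each array measured 35556 probe sets, of which 21789 carried exactly 1 gene symbol and stood for 19938 genes. The values are log2 signals, so a step of 1 is a doubling of signal. Means are given ± SD over the 4 arrays (n = 4), and a percentile is the place of a gene's mean among the 19938 genes. A signal also depends on the sequence and number of a gene's probes, so a rank is a rank of brightness on this array, not of RNA molecules. Mean signals ran from 3.09 to 14.78 with a median of 7.49. As a mark for background, the 95th percentile of 60 genes known from other organs (muscle, testis, pancreas, lung, liver and others) lay at a log2 signal of 7.45. Of all genes, 10116, or 50.7%, had a mean above this ceiling, and a gene below it was not distinguished from background here. Liver genes that were high on replicate 1 raise this ceiling, and without them, an alternative chosen after seeing the data, it was 6.99 with 11454 genes above it. Where that ends a call on a named gene, the text says so.

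The arrays were alike over most genes, with exceptions that touch the results. Spearman's correlation over genes lay between 0.994 and 0.997 for the pairs of arrays, 0 pairs held identical values, and 86 of the 100 brightest genes of each array were shared by all 4. Replicate 1 held high signals of genes known from liver: in a list of 60 such genes, chosen after the values were seen, 55 of the 58 with a value were highest on replicate 1, as were 4221 of all 19938 genes. Replicate 3 had a narrower scale: with genes split into 10 classes by brightness, class 2 from the dim end lay 0.0939 above its 4-array mean in the median, and the brightest class lay -0.0385 from it. Replicate 1 tilted the other way, by -0.0618 in class 2 and 0.0303 in the brightest class. The animals were checked for sex against the label: the Y-linked genes Eif2s3y, Kdm5d and Uty had means of 9.07 ± 0.13, 8.63 ± 0.047 and 8.48 ± 0.14, and Xist, made from the inactive X of females, had 4.32 ± 0.035.

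Leaving out predicted genes and small RNAs, the 20 brightest genes were, in order, Baiap2l1, Vsnl1, Actb, Fth1, Eef1a1, Snap25, Cst3, Sparcl1, Ndrg2, Gnb1, Sparc, the mitochondrially encoded COX2, Txn1, Rps6, Hspa8, Ckb, Rpl21, Rtn3, Cox6c and Cd81. Vsnl1 codes for visinin-like calcium sensor protein of neurons and read 14.44, 14.39, 14.25 and 14.35 on replicates 1 to 4. Snap25, a SNARE protein of synaptic vesicle fusion, read 13.95, 13.78, 13.84 and 14.02. Cst3, the protease inhibitor cystatin C, read 13.91, 13.81, 13.72 and 13.80, and Sparcl1, a matrix protein of astrocytes, read 13.77, 13.70, 13.56 and 13.63. Ckb, the brain creatine kinase, read 13.43, 13.50, 13.58 and 13.52. In none of these 5 genes did the arrays span more than the 0.239 of Snap25. Mitochondrially encoded COX2, a subunit of cytochrome c oxidase, moved more, at 13.89, 13.67, 13.25 and 13.60, with the lowest value on replicate 3. The first place, Baiap2l1, rests on a doubtful name. Its brightest probe set read 14.88, 14.82, 14.64 and 14.79, but both transcript accessions listed for that probe set were not found among the Baiap2l1 transcripts of the reference table. The probe set that does list a Baiap2l1 transcript had a mean of 6.11, under the ceiling.

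**Figure D1:**
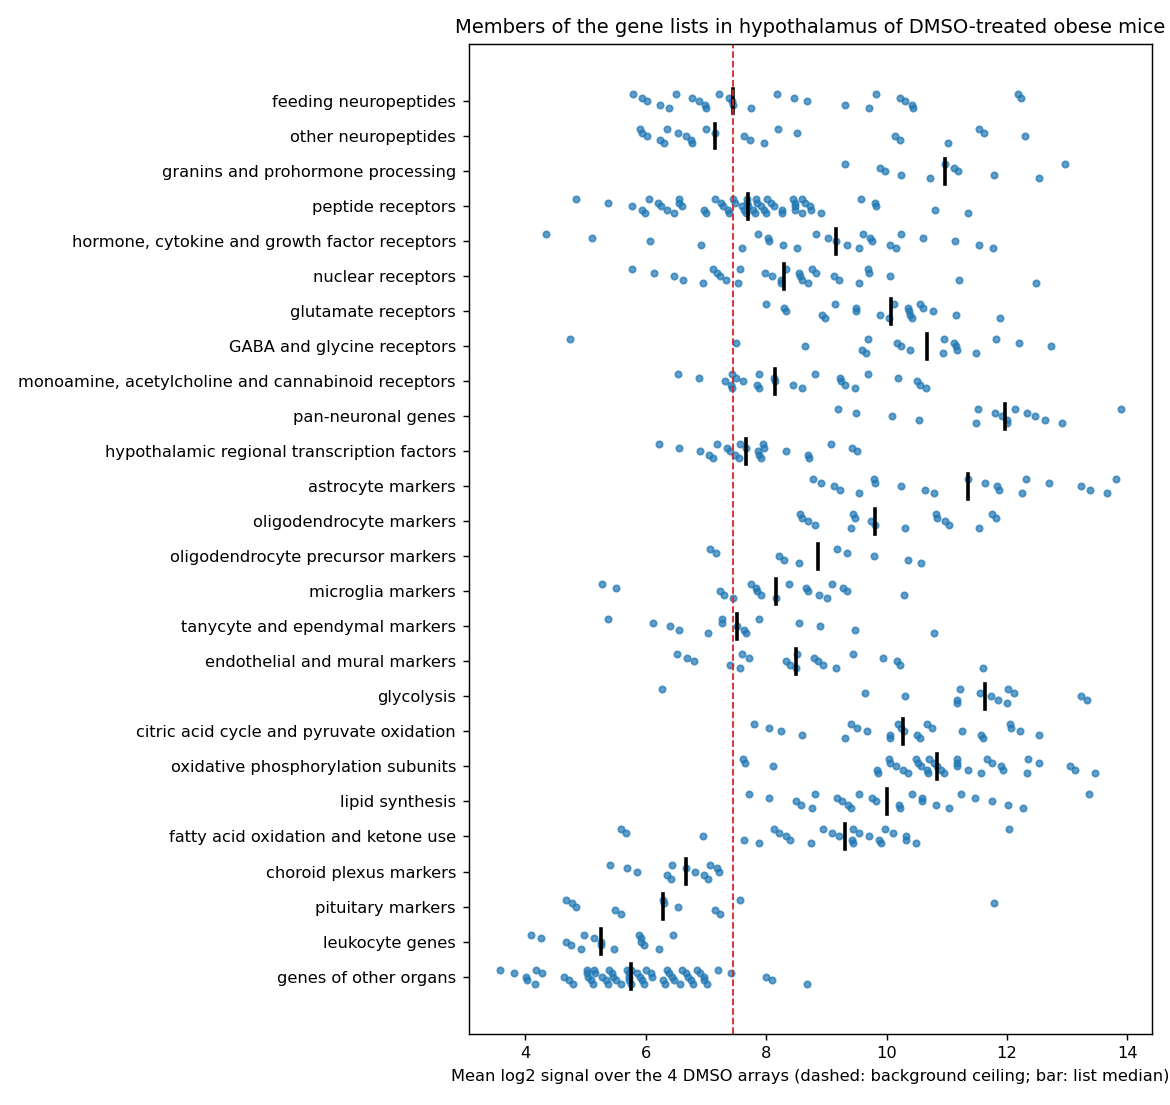
Mean log2 signal over the 4 DMSO arrays (horizontal axis) of every member of 26 gene lists (vertical axis); each point is a gene, the black bar is the list's median and the dashed line is the background ceiling at 7.45. The medians of pan-neuronal, glycolysis and astrocyte genes lie above 11, whereas those of choroid plexus, pituitary and leukocyte genes lie below the ceiling. Also below it are the medians of genes of other organs, of the other neuropeptides (7.14) and, barely, of the feeding neuropeptides.

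Among the feeding peptides the brightest were those of the lateral hypothalamic area. Hcrt codes for the prohormone of the orexins, which promote wakefulness and feeding, and Pmch for that of melanin-concentrating hormone. Hcrt read 12.01, 12.26, 12.51 and 12.15 on replicates 1 to 4, a mean of 12.23 ± 0.21, with the highest value on replicate 3 and the lowest on replicate 1. Pmch read 12.16, 12.23, 12.32 and 11.99, a mean of 12.17 ± 0.14, with the lowest value on replicate 4. Both were among the brightest genes of the array, at percentiles of 99.2 and 99.1.

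The peptides of the arcuate nucleus spanned a wide range of signal. Cartpt, the anorexigenic CART prohormone, read 10.35, 10.56, 10.49 and 10.37, and Npy, the prohormone of the appetite-raising neuropeptide Y, read 9.75, 9.89, 9.97 and 9.70. Gal, galanin, read 10.42, 10.18, 10.02 and 10.24, and Ghrh, the releasing hormone of growth hormone, read 8.47, 8.52, 8.60 and 8.47. Pomc, the prohormone of the melanocortins that limit feeding, read 8.07, 8.25, 8.20 and 8.20, a mean of 8.18 ± 0.076 at the percentile 60.9. All 5 were above the ceiling on every array. Pomc and Ghrh varied the least of these, with SDs of 0.076 and 0.061, and Gal the most, with 0.17. Agrp, the partner of Npy in hunger neurons, was not named by a single-symbol probe set and is not analysed here.

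Of the peptides grouped here with the paraventricular and supraoptic nuclei, all but Crh were bright and repeatable. Oxt, oxytocin, read 11.51, 11.53, 11.56 and 11.56, a mean of 11.54 ± 0.026. Avp, vasopressin, read 11.08, 10.87, 11.10 and 11.05, a mean of 11.03 ± 0.11, with replicate 2 lowest. Trh, thyrotropin-releasing hormone, read 10.45, 10.38, 10.39 and 10.50, and Adcyap1, the peptide PACAP, read 10.32, 10.32, 10.30 and 10.26. In none of these 4 genes did the arrays span more than the 0.234 of Avp. Crh, corticotropin-releasing hormone, lay below the ceiling on every array, at 5.93, 6.06, 6.08 and 5.99.

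Of the widely spread peptides, Sst, somatostatin, had the highest mean of both peptide lists, at 12.24, 12.26, 12.39 and 12.31 (mean 12.30 ± 0.067). Penk, the enkephalin prohormone, read 11.66, 11.57, 11.65 and 11.57, and the tachykinin genes Tac1 and Tac2 had means of 10.21 ± 0.14 and 10.14 ± 0.10. Pnoc, Pdyn and Vip had lower means of 8.19, 7.96 and 7.63. The reproductive peptides Kiss1 and Gnrh1 were below the ceiling, at 6.75 ± 0.080 and 6.53 ± 0.24. Few neurons make either peptide, and a low signal in the whole tissue does not separate few cells from little RNA in each.

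The most variable peptide was Cck, cholecystokinin. It read 9.90, 9.51, 9.23 and 10.19, high on replicates 1 and 4 and low on 2 and 3, as were the thalamus markers, whose part in it was not tested. Nts, neurotensin, straddled the ceiling at 7.94, 7.44, 7.11 and 7.30, all above 6.99. In all, 13 of 27 feeding peptides and 11 of 23 other peptides with a value were above the ceiling, near the 50.7% of all genes, and their median percentiles were 49.2 and 44.7. The peptide lists held both very bright and dim genes: 6 members of each list were in the brightest 10% of all genes, and the lowest means were those of Ucn2, at 5.79 ± 0.17, and Tac4, at 5.91 ± 0.049.

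The proteins that sort and cut the prohormones were uniformly bright. All 11 measured members were above the ceiling, with a median percentile of 96.1, and 8 were in the brightest 10%. Pcsk1n, an inhibitor of prohormone convertase, read 12.87, 12.96, 13.12 and 12.91, and Cpe, which trims the cut peptides, read 12.63, 12.46, 12.47 and 12.57. Chga, a granin of the vesicle core, read 11.82, 11.75, 11.78 and 11.81. Pam, which amidates peptides, had a mean of 11.19 ± 0.076, and the granins Scg2 and Chgb had 10.97 ± 0.040 and 10.24 ± 0.069. Scg3, another granin, was the most variable, at 11.30, 11.23, 10.78 and 11.17, with replicate 3 lowest. Vgf, a secretory precursor, was the dimmest, at 9.31 ± 0.11.

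**Figure D2:**
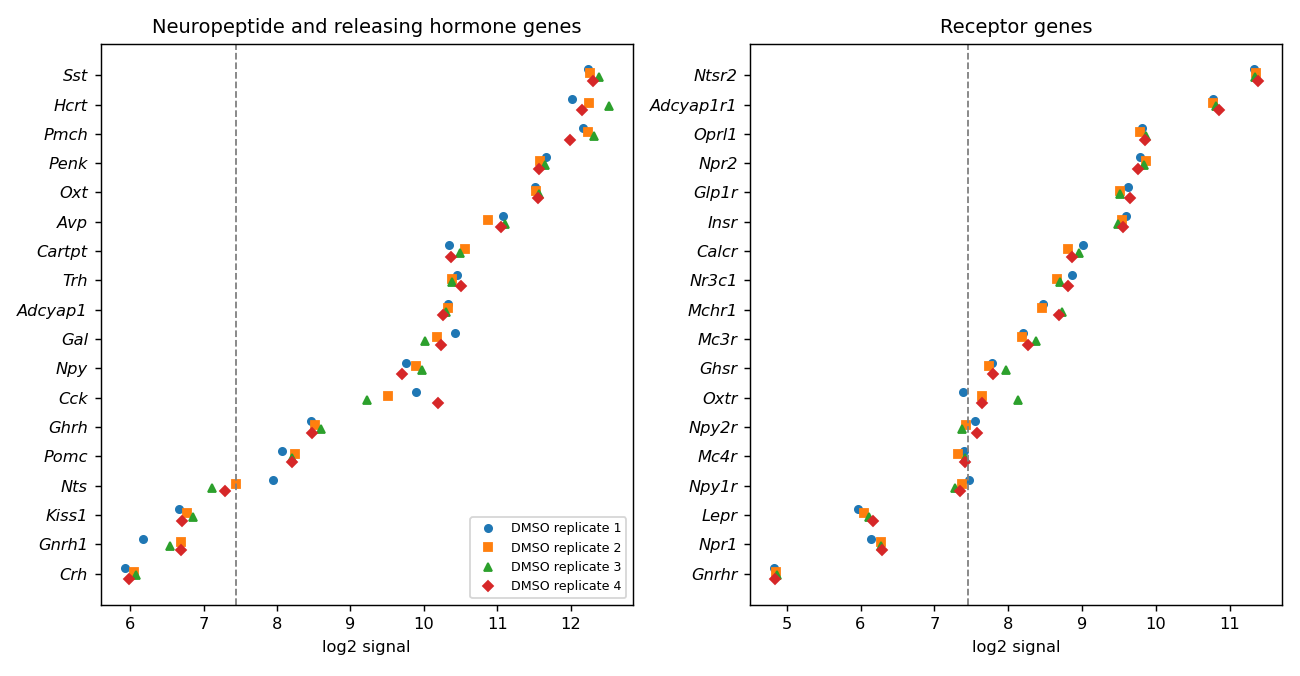
Log2 signal (horizontal axis) of 18 neuropeptide genes and 18 receptor genes (vertical axes) on each of the 4 DMSO arrays; each symbol is 1 array and the dashed line is the background ceiling. Sst, Hcrt and Pmch sit near 12 on every array, Crh, Lepr and Gnrhr lie below the ceiling on every array, and Cck and Oxtr spread the most.

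Few receptors of these peptides reached the brightest 10%. Of 55 peptide receptors, 34 (61.8%) were above the ceiling, against 50.7% of all genes. The median percentile was 53.3, and 2 of the 55 were in the brightest 10%. Those were Ntsr2, a neurotensin receptor of astrocytes, at 11.32, 11.35, 11.33 and 11.38, and Adcyap1r1, the PACAP receptor, at 10.77, 10.78, 10.81 and 10.86. Oprl1, the nociceptin receptor, followed at 9.83 ± 0.039, Npr2, a natriuretic peptide receptor, at 9.81 ± 0.048, and Glp1r, the receptor of the incretin GLP-1, at 9.63, 9.52, 9.51 and 9.65. These 5 had SDs of at most 0.074.

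The receptors of feeding peptides were in the middle of the ranking. The melanocortin receptor Mc3r read 8.20, 8.18, 8.38 and 8.26, above the ceiling on every array. Mc4r, the melanocortin receptor whose loss causes obesity, read 7.39, 7.32, 7.41 and 7.41, below the ceiling of 7.45 and above that of 6.99. Mchr1 had a mean of 8.59 ± 0.14, the orexin receptors Hcrtr1 and Hcrtr2 had 7.84 ± 0.11 and 7.44 ± 0.15, and the neuropeptide Y receptors Npy2r and Npy1r had 7.48 ± 0.096 and 7.37 ± 0.075. Hcrtr2 and Npy1r, like Mc4r, lay between both ceilings. Ghsr, the ghrelin receptor, read 7.78, 7.74, 7.96 and 7.79. Calcr, the calcitonin and amylin receptor, was brighter, at 9.02, 8.80, 8.95 and 8.87. Oxtr, the oxytocin receptor, was the most variable of the list at 7.39, 7.65, 8.13 and 7.64, lowest on replicate 1 and highest on replicate 3. Gnrhr, a receptor known from the pituitary, was the dimmest, at 4.85 ± 0.016.

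Among receptors of hormones, cytokines and growth factors, 21 of 25 (84.0%) were above the ceiling, against 50.7% of all genes. The median percentile was 77.8. Bmpr2, a receptor of bone morphogenetic proteins, read 11.82, 11.71, 11.71 and 11.86, Ntrk2, the BDNF receptor, read 11.62, 11.48, 11.43 and 11.60, and Cntfr, the receptor of ciliary neurotrophic factor, read 11.09, 11.13, 11.14 and 11.17. Insr, the insulin receptor, read 9.59, 9.54, 9.48 and 9.56, a mean of 9.54 ± 0.044. The adiponectin receptors Adipor1 and Adipor2 had means of 10.05 ± 0.065 and 9.34 ± 0.10, and Il6st, the signal-transducing chain of the interleukin-6 receptor family, 10.15 ± 0.018. Lepr, the leptin receptor, was below the ceiling on every array, at 5.97, 6.04, 6.12 and 6.16, and Gfral, the receptor of the hindbrain for GDF15, was the dimmest at 4.34 ± 0.21. Osmr, the oncostatin M receptor, had the highest SD, at 7.21, 7.06, 6.54 and 6.88.

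Of the nuclear receptors, 21 of 30 (70.0%) were above the ceiling, against 50.7% of all genes. Thra, a thyroid hormone receptor, read 12.40, 12.49, 12.53 and 12.51, and the clock repressors Nr1d1 and Nr1d2 had means of 11.21 ± 0.057 and 10.05 ± 0.12. Nr3c1, the glucocorticoid receptor, read 8.86, 8.66, 8.70 and 8.81. Esr1, an oestrogen receptor, was close to the ceiling at 7.53 ± 0.063, and Nr5a1, which marks the ventromedial nucleus, was below it at 7.12 ± 0.088, though above 6.99. Pparg and Ppara, lipid-sensing receptors, were also below it, at 6.46 ± 0.16 and 6.95 ± 0.15. The most variable were Nr4a1, an immediate early gene, with an SD of 0.45, and Rora, which is also a thalamus marker, with 0.39.

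Receptors for fast transmitters ranked high as a group. All 20 glutamate receptor genes were above the ceiling (median percentile 89.8), led by the AMPA receptor subunit Gria1 at 11.88 ± 0.081 and the metabotropic receptor Grm5 at 11.15 ± 0.033. Of 18 GABA and glycine receptor genes, 17 were above it (median percentile 94.2). The GABA-B receptor subunits Gabbr1 and Gabbr2 had means of 12.73 ± 0.046 and 12.19 ± 0.12, and Gabra6, a subunit known from cerebellar granule cells, had 4.74 ± 0.14. Gabra4 and Gabrd, subunits of tonic inhibition known from thalamus and forebrain, were the variable ones. Gabra4 read 10.48, 9.93, 9.80 and 10.77 and Gabrd 7.61, 6.90, 7.36 and 8.15, both highest on replicate 4. Of 25 receptors for monoamines, acetylcholine and cannabinoids, 19 (76.0%) were above the ceiling, against 50.7% of all genes. They were led by the nicotinic subunits Chrnb2 and Chrna4 at 10.65 ± 0.057 and 10.55 ± 0.11 and the serotonin receptor Htr2c at 10.50 ± 0.11.

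Markers of the tissue itself were checked next. All 16 pan-neuronal genes were above the ceiling with a median percentile of 98.9. Of the transmitter genes, those of GABA neurons, Gad2 and Gad1, had means of 11.75 ± 0.054 and 11.31 ± 0.017, and Slc17a6, the vesicular glutamate transporter of hypothalamus and thalamus, read 11.25, 11.18, 11.27 and 11.47. Th, tyrosine hydroxylase, read 9.66, 10.12, 10.07 and 9.59, and Hdc, the histamine-making enzyme of the tuberomammillary nucleus, had 9.25 ± 0.15. Tph2, which marks serotonin neurons of the hindbrain, was far below the ceiling at 4.60 ± 0.18, and so was Dbh of noradrenaline neurons at 5.52 ± 0.20. Of 23 transcription factors of hypothalamic regions, 15 (65.2%) were above the ceiling, against 50.7% of all genes. Above 6.99 were 20 of these factors and 11454 of all 19938 genes. Fezf1 had a mean of 9.51 ± 0.066, Dlx1 9.43 ± 0.12, Otp 9.07 ± 0.14, Sim1 8.71 ± 0.050 and Nkx2-1 8.69 ± 0.088. Rax and Lhx8, at 6.56 ± 0.21 and 6.22 ± 0.18, were among those that were not. Against the labelled tissue, then, the peptides Hcrt, Pmch, Oxt and Avp were bright on every array, whereas Crh, Kiss1 and Gnrh1 were below the ceiling. The peptide lists as a whole, with 13 of 27 and 11 of 23 members above the ceiling, lay near the share of all genes. Most but not all of the regional transcription factors were above background, as were 50.7% of all genes.

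Astrocyte genes were the brightest of the glial lists. All 21 were above the ceiling, the median percentile was 97.5 and 14 were in the brightest 10%. Apoe, the main lipid carrier of the brain, read 13.39, 13.40, 13.38 and 13.31, Aldoc, the aldolase of astrocytes, 13.20, 13.20, 13.25 and 13.25, and Glul, glutamine synthetase, 12.77, 12.72, 12.57 and 12.74. The glutamate transporters Slc1a2 and Slc1a3 had means of 12.25 ± 0.025 and 11.83 ± 0.047. Gfap, the intermediate filament of reactive and fibrous astrocytes, was lower, at 9.07, 9.28, 9.24 and 9.33. No member had an SD above 0.16, that of S100b.

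All 17 oligodendrocyte genes with a value were above the ceiling (median percentile 86.9), among them the myelin genes Mbp at 11.91, 11.81, 11.73 and 11.79, Cnp at 11.53 ± 0.10 and Mag at 11.04 ± 0.077. Of 10 genes of oligodendrocyte precursors, 8 were above it, with Pdgfra, their growth factor receptor, at 9.34 ± 0.070. Of 19 microglia genes, 14 (73.7%) were above it, against 50.7% of all genes. C1qb, a complement subunit, read 10.16, 10.16, 10.33 and 10.47, and Csf1r, the receptor on which microglia depend, read 9.33, 9.29, 9.23 and 9.24. Cx3cr1 and Trem2 had means of 8.70 ± 0.094 and 7.82 ± 0.089. Aif1, which codes for the marker protein Iba1, and Gpr34 were below the ceiling, at 5.50 ± 0.14 and 5.27 ± 0.10. P2ry12, with a mean of 7.29, Fcrls and Itgam were also below it, though above 6.99 on every array. Of 15 genes of tanycytes and ependyma, cells that line the ventricle, 8 were above the ceiling, near the 50.7% of all genes. The brightest were Vim at 10.79 ± 0.083 and Gpr50 at 9.48 ± 0.099, while Rax was below the ceiling. Of 20 vessel genes, 16 (80.0%) were above it, led by the glucose transporter of the blood-brain barrier, Slc2a1, at 11.51, 11.47, 11.69 and 11.72.

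Genes of choroid plexus, pituitary, leukocytes and red cells were mostly at background. None of 13 choroid plexus genes, 16 leukocyte genes or 3 red cell genes with a value was above the ceiling: 0 in each. The haemoglobin genes of the red cell list had only probe sets with several symbols and are not analysed here. With the ceiling of 6.99 set without liver genes, the choroid plexus genes Clic6, Ttr, Kl and Col8a1 were above it on the mean, 4 of 13, and the counts of leukocyte and red cell genes stayed 0. Kl and Folr1 of the choroid plexus had means of 7.07 ± 0.086 and 6.81 ± 0.078, and Ptprc, the pan-leukocyte gene, had 5.92 ± 0.026. Of 12 pituitary genes, 2 were above it, Chga, which neurons also make, and Cga, the alpha chain of its glycoprotein hormones. Gh and Prl, the pituitary hormones growth hormone and prolactin, had 6.54 ± 0.28 and 5.49 ± 0.35. By contrast, 13 of 15 thalamus markers, 12 of 12 striatum markers and 9 of 14 markers of cortex and hippocampus were above the ceiling. Many of those genes, such as Penk, Tac1 and Calb2, are also made in the hypothalamus, but the thalamus markers differed between the arrays.

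Genes of energy metabolism were among the brightest lists. For glycolysis 13 of 14 members were above the ceiling, with a median percentile of 98.2. Aldoa read 13.28, 13.29, 13.36 and 13.42, Hk1, the hexokinase of brain, 12.15, 12.17, 11.92 and 12.22, and Pkm, pyruvate kinase, 12.01, 11.97, 12.01 and 12.05. Hk2, the hexokinase of muscle and fat, was the exception, at 6.31, 6.19, 6.43 and 6.16. All 24 genes of pyruvate oxidation and the citric acid cycle were above it (median percentile 91.5), with Mdh2, malate dehydrogenase, at 12.48, 12.53, 12.56 and 12.55. All 35 subunits of oxidative phosphorylation were above it (median percentile 95.4), with Cox6c at 13.56, 13.46, 13.37 and 13.44 and the ATP synthase subunit Atp5b at 13.18, 13.06, 13.08 and 13.16. The arrays differed little in these genes, and the median SDs of the 3 lists were 0.0657, 0.0730 and 0.0709, against 0.102 over all genes. Other bright lists had medians of 0.0657 (astrocyte), 0.0679 (pan-neuronal) and 0.115 (GABA and glycine receptors). Of the 35 oxidative phosphorylation genes, 18 had both replicates 1 and 4 above both others, and 0 had the reverse. Over all 19938 genes these counts were 2979 and 4637. The brightest 10% of all genes, which held 28 of the 35, had the same split in the median. Its medians were 0.0303, -0.0160, -0.0385 and 0.0180 on replicates 1 to 4.

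Genes of lipid synthesis were also bright. All 26 were above the ceiling (median percentile 89.0). Scd2, the stearoyl-CoA desaturase of brain, read 13.39, 13.32, 13.34 and 13.41, and Scd1, its relative known from liver and fat, 12.20, 12.30, 12.21 and 12.32. Fasn, fatty acid synthase, had a mean of 11.24 ± 0.048, and Hmgcs1 and Fdft1 of cholesterol synthesis had 10.59 ± 0.052 and 11.47 ± 0.10. Of 26 genes of fatty acid oxidation and ketone use, 23 were above it (median percentile 80.1). Fabp7, a fatty acid carrier of astrocytes, read 12.17, 12.12, 11.84 and 11.998, and Cpt1c, the neuronal form of carnitine palmitoyltransferase, had a mean of 10.32. Cd36, which takes up fatty acids in fat and muscle, and the lipoprotein lipase gene Lpl were below it at 5.59 ± 0.23 and 5.67 ± 0.051.

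Of 23 genes of nutrient transport and sensing, 18 (78.3%) were above the ceiling, against 50.7% of all genes. The kinase genes Mtor and Prkaa1 had means of 10.08 ± 0.044 and 10.15 ± 0.12, and the subunits Abcc8 and Kcnj11 of the ATP-sensitive potassium channel had 8.49 ± 0.054 and 7.58 ± 0.088. Slc2a2 and Gckr, known from liver and beta cells, were below it at 5.74 ± 0.092 and 5.71 ± 0.062. Of 15 genes of insulin and leptin signalling, 14 were above it. Stat3 had a mean of 9.82 ± 0.047, Ptpn1, a phosphatase that limits leptin and insulin signals, 7.87 ± 0.093, and Irs2 9.16 ± 0.043. Socs3, an inhibitor induced by leptin, read 7.29, 7.19, 7.79 and 7.56, higher on replicates 3 and 4.

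The spread between the arrays was small for most genes. The median SD over the 19938 genes was 0.102, and 89.3% of genes had an SD under 0.2. An SD over 0.5 was found for 51 genes, or 0.256% of all. Leaving out replicate 1 gave 36 such genes and leaving out replicate 2 gave 81. The same count over the 4 celastrol arrays was 66 (0.331%) and over the 4 withaferin A arrays 45 (0.226%). Just inside the threshold were Ces1d and Zfp975, with SDs of 0.504 and 0.508, and just outside were Stum and Npm1, with 0.494 and 0.487. A single array stood apart from the other 3 (a gap to the nearest array, over the whole range, above Dixon's 95% critical value) for 970 genes, or 4.87%, close to the 1 in 20 that chance gives. Of those, 316 were high on replicate 3, against 107 on replicate 1, 58 on replicate 2 and 71 on replicate 4. When only those with a range over 1 are counted, replicate 1 held 16 of the high ones, replicate 3 held 1, replicate 4 held 1 and replicate 2 held 0.

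**Figure D3:**
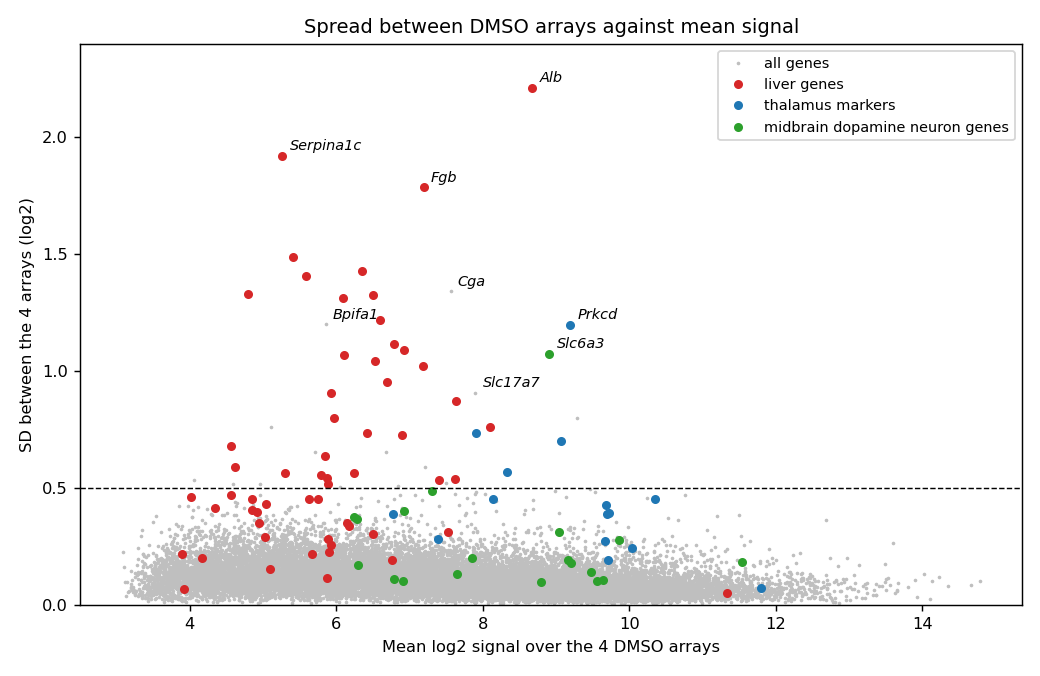
SD between the 4 DMSO arrays (vertical axis, log2) against mean log2 signal (horizontal axis) for 19938 genes in grey, with the genes of 3 lists in colour and the threshold of 0.5 dashed. Liver genes make up most points above the threshold, and Prkcd and Slc6a3 stand out at brighter signals.

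Genes known from liver, high on replicate 1, made up most of the variable genes. Of the 51 genes with an SD over 0.5, 32 were in the liver list and 37 were highest on replicate 1, where of all 19938 genes 58 were in that list and 4221 were highest on replicate 1. Since that list was chosen after the values were seen, this count is a description. Within the list of genes from other organs, made for the ceiling, 10 of 10 liver genes were highest on replicate 1, against 4221 of all 19938 genes. That list was chosen with earlier results of these data known, so this count too is a description. The mean deviations of those 10 genes from the 4-array mean were 1.60, -0.35, -0.47 and -0.78 on replicates 1 to 4. For the longer liver list they were 0.98, -0.25, -0.26 and -0.47.

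Alb, serum albumin, had the highest SD of all genes. It read 11.85, 8.40, 7.66 and 6.80 on replicates 1 to 4, far above the others on replicate 1 and lowest on replicate 4. Fgb, the fibrinogen beta chain, read 9.87, 6.45, 6.33 and 6.13, with replicate 1 alone high and the other 3 below the ceiling. Serpina1c, a serine protease inhibitor of plasma, read 8.10, 4.78, 3.90 and 4.29. Fgg, the fibrinogen gamma chain, read 8.43, 6.11, 5.71 and 5.19, Hamp, the iron hormone hepcidin, 7.63, 4.40, 4.82 and 4.80, and Saa2, the acute-phase serum amyloid, 7.70, 4.98, 4.89 and 4.80. Ahsg, fetuin, Hpx, haemopexin, and Cyp2e1, an alcohol-oxidising cytochrome, read 8.01, 5.72, 5.63 and 5.04, 8.46, 6.31, 6.26 and 6.12 and 8.40, 6.23, 5.90 and 5.84. In all of these replicate 1 was the highest by more than 1.

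Without replicate 1, the SD of Alb was 0.80 and that of Fgb 0.16, and 36 genes had an SD over 0.5, of which 18 were among the 51. The 3 members of the liver list that were not highest on replicate 1 were Saa1, Cyp7a1 and G6pc, all below the ceiling. Itih3, a plasma inhibitor chain, was bright on every array, at 11.38, 11.29, 11.37 and 11.29. Ttr, transthyretin, made by both liver and choroid plexus, read 8.71, 6.67, 6.53 and 6.83. The choroid plexus genes Kl and Folr1 read 7.01, 7.03, 7.20 and 7.05 and 6.82, 6.83, 6.89 and 6.70, without a high value on replicate 1. Lcn2, an acute-phase gene, read 7.30, 6.32, 6.54 and 6.62. Bpifa1, a gene of the upper airway that is in no list, read 7.66, 5.31, 5.33 and 5.14, high on replicate 1 too. Leukocyte and red cell genes stayed below the ceiling on the mean, with scores on replicate 1 of -0.0855 and -0.0486. Set against genes of the same brightness, these scores were -0.0240 and 0.0039. The red cell score rests on 3 genes and holds no haemoglobin gene. Why genes such as Alb and Bpifa1 read high on replicate 1 was not tested.

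Alb also varied within the other groups, at 9.82, 9.99, 7.10 and 7.27 on the celastrol arrays and 8.40, 7.67, 6.86 and 7.91 on the withaferin A arrays. The liver score on those 8 arrays, set against the DMSO means, lay between -0.37 and 0.14, below the 0.98 of DMSO replicate 1. Of the 32 liver genes with an SD over 0.5 here, 11 had one between the celastrol arrays and 1 between the withaferin A arrays. Of the other 19 variable genes, 10 did in each of those groups.

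The promoters of 3 of these liver genes were chosen for display because they hold GTTAAT, after 7 motifs had been searched on both strands of all windows. The windows hold 250 bases before to 50 after the start of the gene in RefSeq (GRCm38.p6), given 5′ to 3′ on the gene's strand. The capitals mark matches to GTTAAT on either strand, letters that form one side of the binding site of the liver factor HNF1. The windows are chr5:90460620-90460919 (+) for Alb, chr3:83049814-83050113 (-) for Fgb and chr12:103904901-103905200 (-) for Serpina1c.
Alb: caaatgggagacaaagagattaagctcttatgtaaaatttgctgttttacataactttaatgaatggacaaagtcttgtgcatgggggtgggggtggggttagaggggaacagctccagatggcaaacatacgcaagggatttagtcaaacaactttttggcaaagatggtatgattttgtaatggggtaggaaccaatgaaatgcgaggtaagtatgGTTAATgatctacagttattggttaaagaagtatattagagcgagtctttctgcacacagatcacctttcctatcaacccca
Fgb: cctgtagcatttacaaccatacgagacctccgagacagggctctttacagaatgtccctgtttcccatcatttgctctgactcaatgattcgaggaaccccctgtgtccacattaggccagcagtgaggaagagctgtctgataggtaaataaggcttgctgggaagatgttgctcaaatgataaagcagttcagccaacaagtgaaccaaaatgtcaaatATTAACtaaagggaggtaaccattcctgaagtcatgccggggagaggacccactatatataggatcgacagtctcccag
Serpina1c: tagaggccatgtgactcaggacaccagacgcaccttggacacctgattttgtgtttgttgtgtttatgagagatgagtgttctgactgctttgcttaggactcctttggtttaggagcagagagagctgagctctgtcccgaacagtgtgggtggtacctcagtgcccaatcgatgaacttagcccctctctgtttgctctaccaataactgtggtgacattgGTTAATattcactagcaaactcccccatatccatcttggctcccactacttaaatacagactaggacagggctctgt
By that choice each window held a match, which lay at position 219, 222 or 224 from its 5′ end. Of 32851 promoter windows 7.10% held GTTAAT, and of the 50 windows of 47 liver-list genes 12 (24.0%) did. TATAAA was in 17 of the 50 windows and in 13.6% of all. GTTAATNATT and CAAAGTCCA were in 1 each, against 0.399% and 0.475% of all. GTTAATNATTAAC, TTGCGCAA and TGACGTCA were in 0, against 0.0091%, 0.183% and 1.79% of all; the first of these and GTTAATNATT contain GTTAAT. A match is a description of these letters only.

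A second group of variable genes separated replicates 1 and 4 from replicates 2 and 3. The thalamus markers, genes of the relay nuclei that lie just above the hypothalamus, had scores of 0.21, -0.35, -0.39 and 0.52 on replicates 1 to 4. In 14 of 15 of them both replicates 1 and 4 were above both others, against 2979 of all 19938 genes, and Calb2 was the exception. Other lists held this split too, in 18 of 35 oxidative phosphorylation, 10 of 16 pan-neuronal and 10 of 18 GABA and glycine receptor genes. It was found in 8 of 20 glutamate receptor, 5 of 21 astrocyte and 3 of 17 oligodendrocyte genes. The brightest of the 10 classes of genes had this split too, with medians of 0.0303, -0.0160, -0.0385 and 0.0180. It held 28 of the 35 oxidative phosphorylation, 13 of the 16 pan-neuronal and 12 of the 18 GABA and glycine receptor genes. Set against genes of the same brightness, the thalamus scores were 0.21, -0.34, -0.38 and 0.52. The oxidative phosphorylation scores were then 0.0359, -0.0174, -0.0330 and 0.0205, and the pan-neuronal ones -0.0003, -0.0238, -0.0197 and 0.0497. The GABA and glycine receptor scores were 0.0944, -0.0684, -0.0909 and 0.0701. Prkcd, a protein kinase C of thalamic relay neurons, read 9.87, 8.28, 8.10 and 10.54. Ramp3, a partner of calcitonin-family receptors, read 8.19, 7.31, 7.31 and 8.82, Plekhg1 9.53, 8.48, 8.45 and 9.80 and Synpo2, an actin-binding protein, 8.61, 7.81, 7.89 and 8.99. In each of these 4 genes replicate 4 was the highest. The transcription factors Tcf7l2, Rora, Lef1 and Gbx2 read 9.84, 9.50, 9.35 and 10.23, 9.88, 9.36, 9.37 and 10.15, 8.20, 7.97, 7.67 and 8.73 and 7.50, 7.14, 7.20 and 7.74.

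Genes outside the list were also higher on replicates 1 and 4. Slc17a7, the vesicular glutamate transporter of cortex and of some thalamic neurons, read 8.30, 6.97, 7.36 and 8.97, and Rasgrp1, an activator of Ras, 11.01, 10.40, 10.33 and 11.30. Ptpn3, a protein tyrosine phosphatase, read 9.76, 8.78, 8.45 and 10.14. The list of cortex and hippocampus markers, which holds Slc17a7 and Rasgrp1, had scores of 0.056, -0.11, -0.064 and 0.12, and 5 of its 14 genes had both replicates 1 and 4 above both others. Among its members Camk2n1, an inhibitor of a calmodulin-dependent kinase, read 11.51, 11.29, 11.44 and 11.63, and Neurod6 and Tbr1 were below the ceiling, with means of 4.21 ± 0.12 and 6.62 ± 0.14. The clock list, which also holds Rora and Rorb, had scores of 0.042, -0.059, -0.10 and 0.12, and the GABA and glycine receptor list 0.11, -0.081, -0.11 and 0.082. What part the thalamus markers have in those scores was not tested. Slc17a6, which thalamus and hypothalamus share, had an SD of 0.12.

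Dopamine neuron genes ran the other way. Slc6a3, the dopamine transporter, read 8.68, 9.92, 9.55 and 7.50, lowest on replicate 4 and highest on replicate 2. Th and Slc18a2, the vesicular monoamine transporter, read 9.66, 10.12, 10.07 and 9.59 and 8.82, 9.30, 9.33 and 8.73, with replicates 2 and 3 above 1 and 4. In a list of 20 midbrain dopamine neuron genes, chosen after the values were seen, the scores of the 19 with a value were -0.11, 0.19, 0.16 and -0.24. Of these, 14 had both replicates 2 and 3 above both others, against 4637 of all genes. Chrna6 and Chrnb3, nicotinic subunits of those neurons, read 6.87, 7.42, 6.97 and 6.44 and 5.97, 6.76, 6.28 and 5.97, and En1, a midbrain transcription factor, 5.89, 6.57, 6.63 and 6.07. Pitx3, also of midbrain dopamine neurons, was below the ceiling at 6.69, 6.75, 6.94 and 6.77. Replicate 4 had the highest score of the thalamus list and the lowest of the dopamine list, while replicate 2 was above replicate 3 in both lists.

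**Figure D4:**
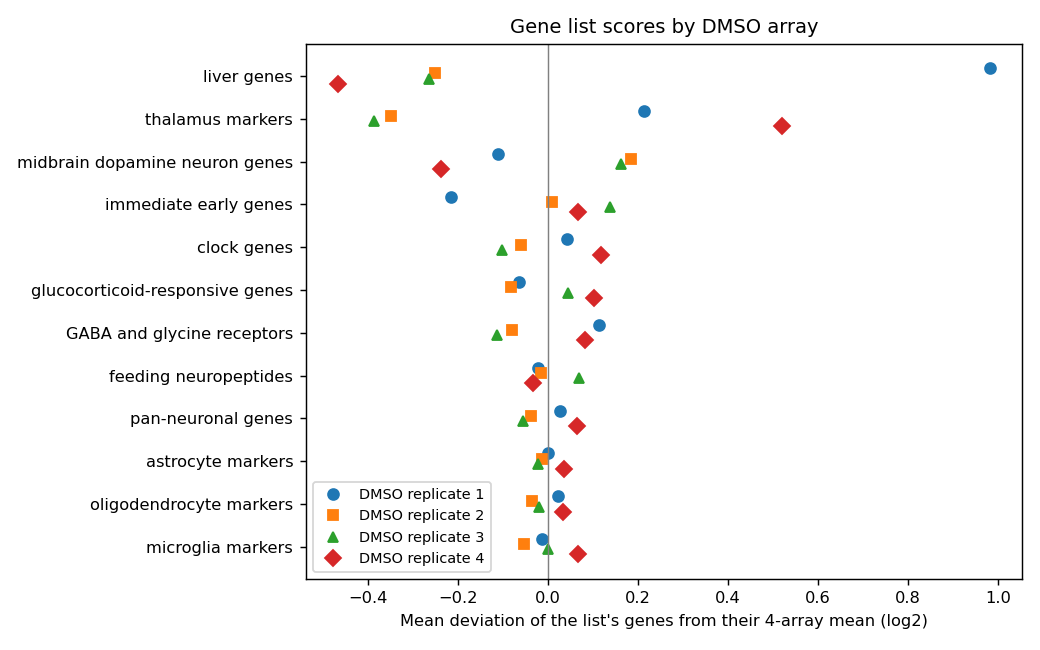
Scores of 12 gene lists (vertical axis) on each DMSO array, as the mean log2 deviation of the list's genes from their own 4-array mean (horizontal axis); each symbol is 1 array. Liver genes are high on replicate 1, thalamus markers are high on replicates 1 and 4, and neuronal, astrocyte and oligodendrocyte scores span at most 0.121.

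Another pattern concerned Cga, the alpha chain of the glycoprotein hormones, which pituitary and pars tuberalis make. It read 9.15, 8.20, 6.39 and 6.52, high on replicates 1 and 2. Tshb, the beta chain of thyrotropin, did not follow and was below the ceiling at 4.60, 4.72, 4.88 and 4.49, nor did the pituitary transcription factor Pitx1, at 6.22, 6.23, 6.43 and 6.27. The 11 genes of a pars tuberalis list and the 18 of a meningeal fibroblast list, both chosen after the values were seen, had scores of 0.14, 0.089, -0.100 and -0.13 and 0.032, -0.015, 0.029 and -0.046. The first score rests on Cga: without it, the other 10 genes had scores of -0.0034, 0.034, 0.0078 and -0.039. In the second list Dcn, the matrix protein decorin, was the most variable, at 9.58, 9.48, 8.64 and 8.85, again high on replicates 1 and 2.

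**Figure D5:**
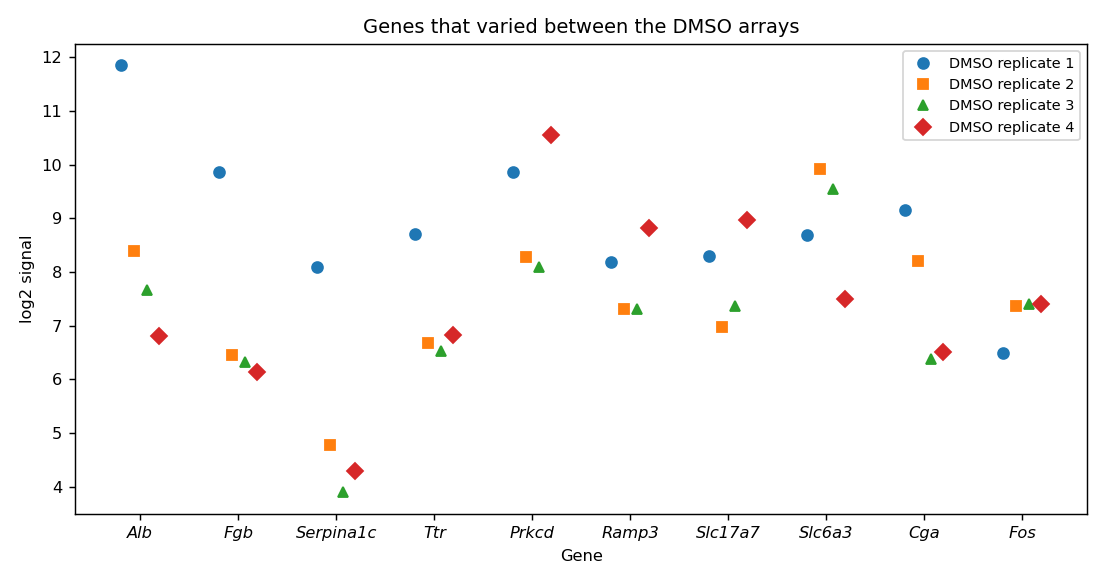
Log2 signal (vertical axis) of 10 genes (horizontal axis) on each of the 4 DMSO arrays, 1 symbol per array. Alb, Fgb, Serpina1c and Ttr are highest on replicate 1, Prkcd, Ramp3 and Slc17a7 on replicate 4, and Slc6a3 is lowest on replicate 4.

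Genes of neuronal activity were low on replicate 1, by less than the liver genes were high. Of 23 immediate early genes, which neurons switch on within minutes of firing, 18 were lowest on replicate 1, against 6178 of all 19938 genes, and the scores were -0.21, 0.010, 0.14 and 0.068. Fos read 6.50, 7.36, 7.41 and 7.41, with replicate 1 low and the other 3 close together. Egr1 read 8.03, 8.59, 8.96 and 8.66, Nr4a1 8.07, 8.64, 9.11 and 8.92 and Dusp1, a phosphatase of the MAP kinases, 9.36, 9.73, 10.04 and 10.14. Set against genes of the same brightness, the score of replicate 1 was -0.19. Genes known from liver were high on the same array, and their part in this was not tested.

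Glucocorticoid-responsive genes had scores of -0.064, -0.083, 0.044 and 0.10. The metallothioneins Mt2 and Mt1 were bright, at 13.23 ± 0.071 and 11.99 ± 0.090. Sgk1, a kinase induced by corticosterone, read 8.87, 9.003, 9.31 and 9.62, and Ddit4, an inhibitor of mTOR, 8.53, 8.53, 8.93 and 9.13, both higher on replicates 3 and 4. Fkbp5, a chaperone partner of the glucocorticoid receptor, read 7.39, 7.48, 7.58 and 7.65, with replicates 3 and 4 also the higher ones. The inflammatory genes Il6, Tnf, Il1b and Ccl2 were below the ceiling, with means of 3.58 ± 0.12, 5.40 ± 0.25, 5.54 ± 0.12 and 5.75 ± 0.25. The heat shock genes Hspa8 and Hsp90aa1 were bright, at 13.51 ± 0.11 and 12.50 ± 0.12, as was Hspa5 of the endoplasmic reticulum, at 11.72 ± 0.054.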

How the data were processed

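Total RNA of hypothalamus was labelled with biotin and hybridised to one-colour Affymetrix whole-transcript arrays, per the labels. The deposited values are log2 signals that the authors made with RMA, per the submitters' processing notes. RMA corrects background, normalizes between arrays and summarises the probes of a set; its version and settings are not given in the sources used here. All 12 arrays appear in the table; whether they were normalized together is not given, and a joint normalization would let treated arrays bear on DMSO values.

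Only the 4 DMSO arrays entered means, SDs, ranks and list scores, computed with Python 3.11.15, numpy and pandas. Probe sets were named through the platform's annotation: 1621 with several symbols and 12146 with none were left out. Where a gene had several probe sets (999 genes), its brightest was taken. With 1 group, no test was run and no p-value is given, and the number of arrays limits the precision. A list score is the mean deviation of a list's genes from their own 4-array means. The scripts were tested on simulated data.

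Named genes were the 20 highest means and 20 highest SDs, and for each of 38 lists the 5 highest means, 2 highest SDs and the lowest mean, beside a fixed set of peptides, receptors and markers. Other genes named were chosen after their values were seen. The members and lists were chosen with earlier results of these data known, and 4 lists were added after the values were seen. Alternatives were all probe sets per gene, another normalization, median centring, other thresholds and leaving out each array. Of 860 list entries, those without a single-symbol probe set are not analysed here. Promoters came from RefSeq (GRCm38.p6).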

Additional observations from a re-analysis of the deposited data

Results flagged for a closer look

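In 14 of the 228 genes named, or 6.14%, 1 of the 4 arrays stood apart from the other 3, against 4.87% of all genes. Many of the named genes were picked for a high SD over these same arrays, so the share is a description only. Replicate 1 was the array apart in 8 of them. It was high for Bpifa1 (7.66), Cyp2e1 (8.40), Fgb (9.87), Hamp (7.63), Hpx (8.46), Saa2 (7.70) and Ttr (8.71), and low for Fos (6.50). All of the high ones but Bpifa1 are in the liver list.

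Replicate 3 was high for Abcc8 (8.57) and Cd36 (5.93) and low for Kdm5d (8.56) and Mt2 (13.12). Replicate 2 was high for Xist (4.37), which lay below background on every array, and replicate 4 was high for Chrna4 (10.72). Of the 42 gene list scores, 2 had 1 array apart: liver genes, at 0.982 on replicate 1, and striatum markers, at 0.041 on replicate 3. The causes were not tested.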

How the results depend on the processing

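Of 45 genes whose mean was recomputed, 41 moved by less than their SD under every alternative. Of the 20 largest SDs, 18 moved by over 1.5 times when 1 array was left out. Taking all probe sets per gene, normalizing again by quantiles or centring on the median left the count of genes with an SD over 0.5 between 50 and 59 and those with 1 array apart between 961 and 1030. Leaving out 1 array at a time gave 36 to 81 genes with an SD over 0.5, the lowest without replicate 1 and the highest without replicate 2. A threshold of 0.4 gave 113 and one of 0.7 gave 31, by construction. With 3 arrays no array can be called apart by this rule.

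The background ceiling was 8.34 at the 99th percentile of the genes of other organs, with 7241 genes above it. It was 6.98 at the 90th, and 6.99 without the liver genes, an alternative added after seeing the data, with 11454 above it. The range of the liver score over the arrays was 0.21 to 1.45 when 1 array was left out, the lowest without replicate 1, and that of the immediate early genes 0.13 to 0.35, again lowest without replicate 1. The ranges of the thalamus, dopamine and glucocorticoid lists moved by less than the spread between arrays under every alternative run.

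Leaving out genes under the 25th percentile moved list median percentiles by -20.9 to 6.4, since fewer genes were ranked. The 4 means that moved, with all probe sets taken, were those of Baiap2l1 (10.89), Insr (9.30), Rps6 (13.32) and Rpl21 (12.92). No paired analysis was possible because only 1 group was described. No counts underlie the values, and signals near the ceiling limit what can be said of dim genes.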
